A study of Mus musculus with 7 samples.

Results

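Npl, Tuba3b, Tcl1, Lrrc34, Ppm1j and Mme are 6 protein-coding genes that were expressed in wild type (WT) mouse embryonic stem cells (ESCs) and lower in cells that lack the distal super-enhancer (SE) of Sox2. They were chosen by name for a large fall in the RNA-seq libraries of the SE mutants, so that their fall in these libraries is described here and not tested. They are 6 of the 31498 genes of the GENCODE M1 annotation on mm9 that hold at least 200 exonic bases of their own, and all 6 were found there under 1 record each. The 2 kinds of measurement that did not enter this choice are the histone marks at these genes in unedited cells and the RNA of their neighbours.

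The 6 genes have unrelated products. Npl encodes N-acetylneuraminate pyruvate lyase, which splits free sialic acid, and Mme encodes neprilysin (CD10), a zinc peptidase of the cell surface. Ppm1j encodes a serine/threonine phosphatase of the PPM (PP2C) family. Tcl1 encodes a small protein that binds the kinase Akt and promotes its activity, and it is known in ESCs as a gene of the undifferentiated state. Lrrc34 encodes a leucine-rich repeat protein of the nucleolus described in pluripotent cells, and Tuba3b encodes an alpha-tubulin known mainly from testis. An SE is a cluster of enhancers with a high level of H3K27ac, the acetylation of histone H3 that marks active enhancers and promoters, while H3K4me3 marks active promoters. Sox2 is a transcription factor of the pluripotency network that acts at many enhancers of ESC genes.

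RNA-seq was performed on F123, an ESC line whose alleles come from M. m. castaneus (CAST) and 129 mice, with 1 library for each of 4 genotypes: WT, in which the SE is intact on both alleles, the monoallelic mutants CAST+/129- (SE deleted on the 129 allele) and CAST-/129+ (SE deleted on the CAST allele), and the biallelic mutant CAST-/129-. Each genotype is a single clone, of which the 3 mutants were made by CRISPR deletion, and clones recovered from transfection on mouse embryonic fibroblast feeders before they were passaged on gelatin without feeders. ChIP-seq was performed on unedited cells, for H3K4me3 and H3K27ac in F123 and for H3K27ac in J1, an ESC line of 129 background, again with 1 library each. Since each condition has 1 library, differences between genotypes were not tested, and the intervals below are exact 95% intervals that cover counting error only. They take each alignment as independent. RNA was sequenced in pairs, and the intervals are too narrow where reads of a pair or pieces of a read stand as separate alignments. How often this occurred was not tested. Sox2, the gene next to the deleted SE, was at 175 FPKM in WT, 82.0 in CAST+/129-, 73.1 in CAST-/129+ and 7.40 in CAST-/129-, so that it was lowest in the library labelled as biallelic.

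The libraries held between 5831199 (CAST-/129-) and 24848422 (WT) distinct alignments on the sense strand of the genes tested, and FPKM is the usual scaling of such counts by the exonic length of a gene and by this total. Of 10 ESC markers, 10 were above 8 FPKM in WT. In CAST-/129- 4 of them were more than 3-fold lower (Sox2, Nanog, Esrrb and Zfp42), beside 0.511% of all genes and 1.98% of those above 8 FPKM, and in each monoallelic library 0 were. Pou5f1, which encodes Oct4, was at 188 FPKM in WT and 163 in CAST-/129-, or at 61.9% of WT there with all reads counted. Lin28a, also a marker, was higher than WT in each mutant, at 39.3 FPKM in WT and 62.6, 105 and 81.6 in CAST+/129-, CAST-/129+ and CAST-/129-. Dppa5a was at 461 FPKM in WT and 480 in CAST-/129-, or at 67.1% of WT there with all reads counted. Of 22 fibroblast markers, 14 were more than 3-fold higher in CAST-/129- and 5 in each monoallelic library (Acta2, Col1a1, Col1a2, S100a4 and Tagln in both), beside 0.819% of all genes in CAST-/129-, 0.321% in CAST+/129- and 0.473% in CAST-/129+. The summed level of all 22 was 455 FPKM in WT, 588 in CAST+/129-, 683 in CAST-/129+ and 1705 in CAST-/129-. Pdgfra, also on this list, was more than 3-fold lower in each mutant, at 22.6 FPKM in WT and 1.60, 2.55 and 4.48 in CAST+/129-, CAST-/129+ and CAST-/129-. Col1a1 was at 3.48 FPKM in WT, 39.0 in CAST+/129-, 38.9 in CAST-/129+ and 174 in CAST-/129-, and Lum, which was at 0 counts in WT, had 104 in CAST-/129-. Fewer cells that express a gene and less of its RNA per cell cannot be told apart in such libraries, and the part of the fibroblast markers in the results below was not tested.

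In WT cells Mme had the highest level of the 6 genes (65.8 FPKM), followed by Npl (58.1), Tcl1 (53.5), Tuba3b (42.6), Lrrc34 (23.7) and Ppm1j (20.8). Of neighbours in this order, the counting intervals overlapped for Npl (55.6 to 60.7) and Tcl1 (51.1 to 56.0) and for no other pair, although that of Lrrc34 (22.3 to 25.1) came close to that of Ppm1j (19.4 to 22.2). All 6 lay in the upper part of the transcriptome, from Ppm1j, which was above 86.1% of all genes, to Mme, which was above 96.6%. The fold rule adds 4 to each FPKM, so that only genes above 8 FPKM in WT can pass a 3-fold fall, and all 6 could.

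**Figure D1:**
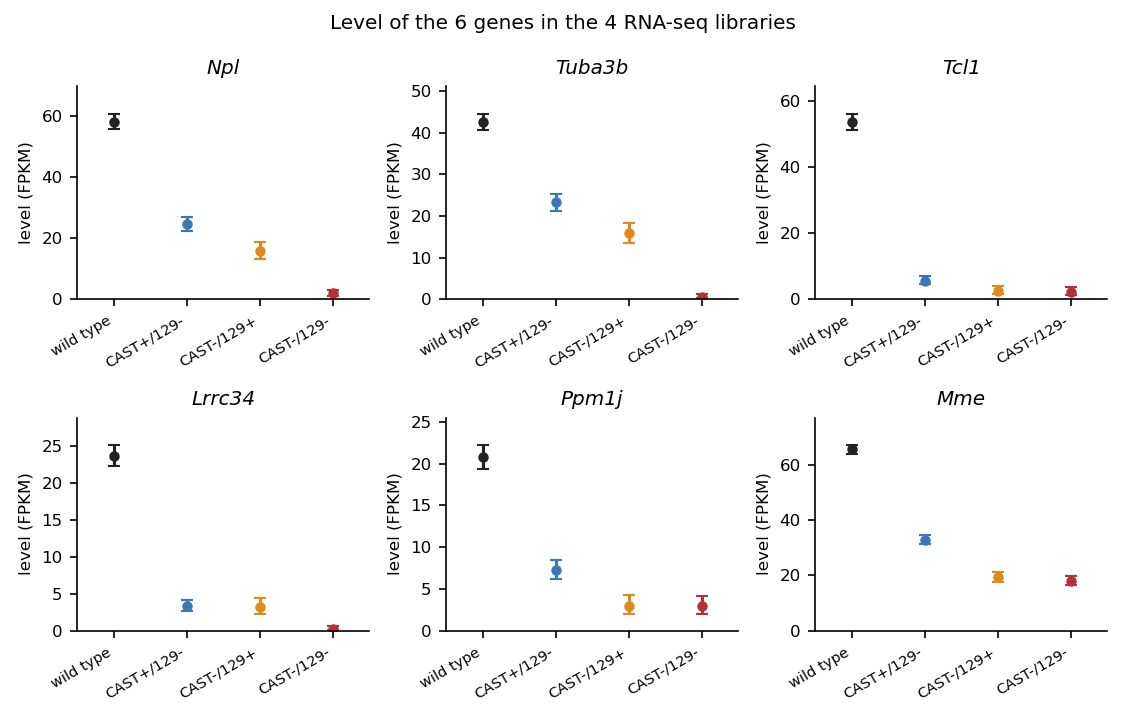
Level of each gene (FPKM, vertical axis from 0, scales differ between panels) in the 4 RNA-seq libraries, with 1 point per library and bars for the exact 95% Poisson interval of the count. Npl, Tuba3b and Lrrc34 are lowest in CAST-/129-, below both monoallelic libraries, whereas Tcl1, Ppm1j and Mme sit at similar levels in CAST-/129+ and CAST-/129-.

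Npl, Tuba3b and Lrrc34 kept part of their RNA in the monoallelic mutants and almost none in the biallelic mutant. Npl, the sialic acid lyase, was at 58.1 FPKM in WT, 24.5 in CAST+/129-, 15.8 in CAST-/129+ and 1.83 in CAST-/129-. This left 42.2% of the WT level (37.9 to 46.8), 27.1% (22.6 to 32.3) and 3.16% (1.76 to 5.22) in the mutants in that order. Tuba3b was at 42.6 FPKM in WT, 23.3 in CAST+/129-, 15.8 in CAST-/129+ and 0.580 in CAST-/129-. Of its WT level the alpha-tubulin gene thus kept 54.7% (49.5 to 60.3), 37.1% (31.5 to 43.4) and 1.36% (0.499 to 2.97) in the same order. Lrrc34 was at 23.7 FPKM in WT, 3.31 in CAST+/129-, 3.14 in CAST-/129+ and 0.181 in CAST-/129-. It differed from the other two in that the monoallelic libraries were already low, at 14.0% (11.0 to 17.6) and 13.3% (9.25 to 18.5) of WT, before the 0.766% (0.0927 to 2.78) of CAST-/129-. The last value rests on 2 alignments against 1112 in WT, and those of Npl and Tuba3b on 15 against 2025 and 6 against 1879.

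Over all exons, Tcl1, Ppm1j and Mme were below WT in the monoallelic CAST-/129+ library already and did not differ from it beyond counting error in the biallelic one, although Mme did not pass the 3-fold rule in CAST-/129+. For Mme this depended on the part of the gene, as given below. Tcl1 was at 53.5 FPKM in WT, 5.60 in CAST+/129-, 2.49 in CAST-/129+ and 2.22 in CAST-/129-. The Akt coactivator gene was at 10.5% of WT (8.44 to 12.8) in CAST+/129-, where its interval overlapped that of Lrrc34 alone, at 4.66% (2.87 to 7.14) in CAST-/129+, below the other 5 genes, and at 4.15% (2.45 to 6.57) in CAST-/129-. Ppm1j was at 20.8 FPKM in WT, 7.28 in CAST+/129-, 2.97 in CAST-/129+ and 2.89 in CAST-/129-. The phosphatase gene kept 35.0% (29.3 to 41.5), 14.3% (9.66 to 20.4) and 13.9% (9.25 to 20.1) of its WT level in the same order. Mme was at 65.8 FPKM in WT, 33.0 in CAST+/129-, 19.4 in CAST-/129+ and 18.0 in CAST-/129-. With 50.2% (47.6 to 52.8), 29.5% (26.9 to 32.3) and 27.4% (24.9 to 30.1) of WT the neprilysin gene kept the largest share of the 6 in CAST-/129- by distinct alignments over all exons. With all reads counted it was at 20.7% of WT there and Ppm1j at 20.4%.

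The split between both sets of 3 genes showed in the ratio of CAST-/129- to CAST-/129+. For Npl this ratio was 11.6% (6.33 to 19.9), for Tuba3b 3.67% (1.33 to 8.15) and for Lrrc34 5.77% (0.673 to 22.4), and all these intervals lay below 100%, as did those of 32.8% of the 8141 genes above 8 FPKM in WT, while those of 18.8% lay above it. For Tcl1 it was 89.1% (44.7 to 176), for Ppm1j 97.2% (56.5 to 167) and for Mme 92.8% (81.7 to 105), and all these intervals held 100%. Sox2 itself was at 10.1% (8.21 to 12.4), on the side of the former. The monoallelic libraries also differed from each other for 5 of the 6 genes, with lower values in CAST-/129+, beside 32.6% of the genes above 8 FPKM in WT whose intervals lay below 100% and 22.5% whose intervals lay above it. The ratio of CAST-/129+ to CAST+/129- was 64.4% (52.6 to 78.3) for Npl, 67.9% (56.7 to 80.9) for Tuba3b, 44.5% (26.4 to 71.9) for Tcl1, 40.9% (26.9 to 60.4) for Ppm1j and 58.8% (53.2 to 64.9) for Mme. For Lrrc34 it was 94.9% (62.1 to 143). For Sox2 it was 89.1% (82.9 to 95.7), closer to 100% than for these 5 genes. Differences beyond counting error between these clones were thus common, and nothing is read from the counts of 3 and 5 genes, which were chosen on these libraries. Each library is 1 clone, so that the deleted allele and the clone cannot be told apart.

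**Figure D2:**
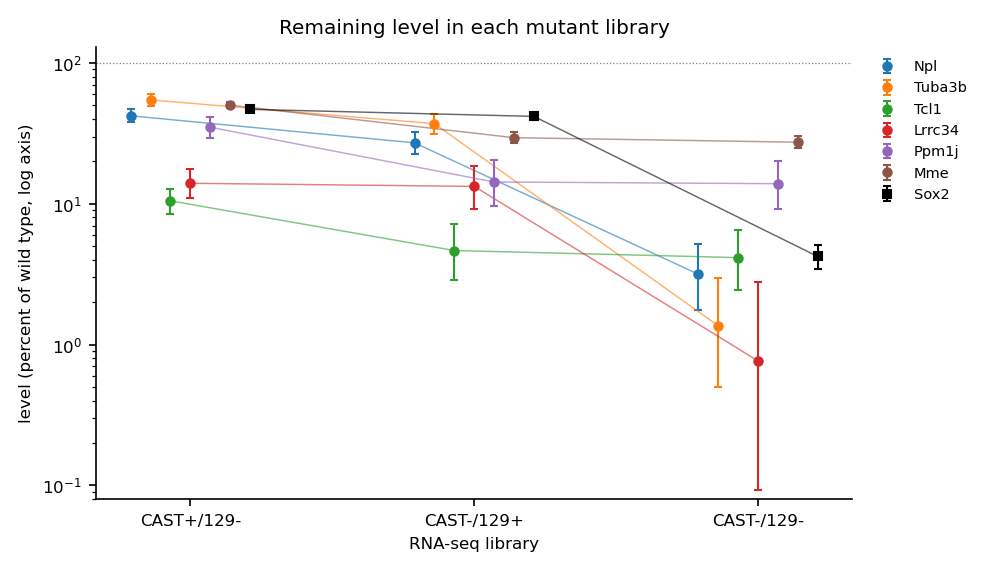
Level of the 6 genes and of Sox2 in each mutant library as a percent of the WT level (log axis, dotted line at 100%), with bars for the exact 95% binomial interval of the ratio of counts and lines that join the values of a gene. Npl, Tuba3b, Lrrc34 and Sox2 are lower in CAST-/129- than in CAST-/129+, whereas the intervals of Tcl1, Ppm1j and Mme overlap between both.

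By the 3-fold rule, 6 of the 6 genes passed in CAST-/129-, beside 0.511% of all genes, or 1.98% of the 8141 genes above 8 FPKM in WT. These shares stand beside a set that was chosen for this fall, and nothing is read from them. In CAST+/129- Tcl1 and Lrrc34 passed (2 of 6, beside 0.305% of all genes and 1.18% of those above 8 FPKM), and in CAST-/129+ Npl, Tcl1, Lrrc34 and Ppm1j (4 of 6, beside 0.330% and 1.28%). Among all genes, ranked from the largest fall in CAST-/129-, Npl was at rank 2, Tuba3b at 3, Tcl1 at 5, Lrrc34 at 13, Ppm1j at 96 and Mme at 132, with Sox2 at rank 1. The median log2 ratio of the 6 was -1.13 in CAST+/129-, -1.74 in CAST-/129+ and -2.97 in CAST-/129-, beside -0.02, -0.10 and -0.14 for all genes above 8 FPKM. The gene just inside the threshold in CAST-/129- was Rpl12-ps1 (log2 ratio -1.59) and the gene just outside was Arl4d (-1.58). Mme (-1.66) and Ppm1j (-1.85) were the members nearest to it, and their calls depended on how alignments were counted. When the library size was taken from all alignments of a file, Mme no longer passed in CAST-/129-, and when all reads were counted instead of distinct alignments, Ppm1j no longer passed there or in CAST-/129+, where Mme then did.

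Compared with Sox2 in the same library, the 6 genes did not follow one order. In CAST+/129- Tuba3b and Mme were above the 46.9% that Sox2 kept and the other 4 below it, with an interval for Sox2 that overlaps those of Mme and Npl. In CAST-/129+ all 6 were below its 41.8% (39.3 to 44.5), with an interval that overlaps that of Tuba3b. In CAST-/129- Lrrc34, Tuba3b, Npl and Tcl1 were below its 4.23%, with an interval of 3.46 to 5.13 that overlaps those of Npl and Tcl1, and Ppm1j and Mme were above it. With all reads counted, 3 of these places turned: Mme was at 36.3% in CAST+/129- against 38.0% for Sox2, Tuba3b at 39.5% in CAST-/129+ against 35.9%, and Tcl1 at 4.85% in CAST-/129- against 3.49%.

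The genes with the most similar pattern were taken as the 2 of 8135 other genes above 8 FPKM in WT with the smallest Euclidean distance over the 3 log2 ratios. For Npl they were Sox2 (distance 0.71) and Dazl, a germ cell RNA-binding protein gene (0.90). For Tuba3b they were Sox2 (0.69) and its paralog Tuba3a (0.73). For Lrrc34 they were Serpinb6c (0.32) and Dazl (0.35). For Tcl1 they were Klf4, a pluripotency transcription factor gene (0.40), and H2-Eb1 (0.51). For Ppm1j they were Slc7a5 (0.13) and Itpk1 (0.14), and for Mme they were Sall1 (0.08) and Isoc2a (0.18). Klf4 was at 120 FPKM in WT and 19.3, 13.9 and 8.29 in CAST+/129-, CAST-/129+ and CAST-/129-. Sall1, another transcription factor gene of ESCs, was at 75.8 FPKM in WT and 39.1, 24.1 and 21.1 in the mutants in the same order. The mutants share the WT library, so that the 3 ratios of a gene are not independent.

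The relatives and partners of the 6 genes were measured by the same rule, under which 0.511% of all genes, or 1.98% of those above 8 FPKM in WT, passed a fall in CAST-/129-, so that counts of 0 in short lists are near the background. Of 15 other genes of sialic acid metabolism, of which 8 were above 8 FPKM and could pass a fall, 0 passed in either direction in any mutant, and the median log2 ratio in CAST-/129- was -0.20. Nans, which makes sialic acid, was at 15.5 FPKM in WT and 17.8 in CAST-/129-, and Cmas, which activates it, at 19.7 and 23.7. Nanp and Gne, also on this list, were lower, at 48.8% (33.2 to 69.7) and 77.0% (64.1 to 91.9) of WT in CAST-/129-. With all reads counted these 2 were at 67.4% and 99.6%. Gnpda1, which acts on glucosamine-6-phosphate downstream of the lyase, had 55.6 FPKM in WT and 22.3 in CAST-/129-, 40.1% of WT (35.6 to 45.1). Of 6 other M13 peptidases 1 could pass a fall and 0 passed. Ece1, the 1 that could, was at 10.3 FPKM in WT and 24.4 in CAST-/129-, 238% of WT (217 to 260).

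Of 18 other PPM phosphatases 8 could pass a fall and 0 passed. Their values went both ways, with Pdp2, a pyruvate dehydrogenase phosphatase gene, at 14.1 FPKM in WT and 4.87 in CAST-/129- and Ilkap at 30.6 and 44.7. Of 9 other genes of the Tcl1 family and Akt kinases 2 could pass a fall and 0 passed. Akt1 was at 15.0 FPKM in WT, 32.1 in CAST+/129-, 35.9 in CAST-/129+ and 41.8 in CAST-/129-. Akt2 was closer to WT, at 13.1 FPKM in WT and 16.8 in CAST-/129-. The nucleolar protein genes Npm1, Ncl and Fbl were at 149% (144 to 154), 125% (122 to 128) and 148% (139 to 157) of WT in CAST-/129-, and 0 of the 3 passed. With all reads counted they were at 89.8%, 97.5% and 114%, so that Npm1 and Ncl changed from above to below WT.

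Of 13 other tubulin genes measured, 11 could pass a fall, and Tuba3a alone passed, in CAST-/129-. It was at 32.5 FPKM in WT, 22.1 in CAST+/129-, 9.62 in CAST-/129+ and 1.59 in CAST-/129-, the same order as Tuba3b. Both are closely related paralogs. Of the 1879 Tuba3b alignments in WT, 22.9% have letters that also occur in a protein-coding transcript of Tuba3a, Tuba8 or Tubal3. In the mutants this other gene was Tuba3a alone. When alignments of at least 25 bases with letters found in Tuba3b transcripts alone were kept, 1334 remained for Tuba3b in WT, 388 in CAST+/129-, 118 in CAST-/129+ and 3 in CAST-/129-, the last 2 being 36.3% (29.8 to 43.8) and 0.958% (0.197 to 2.81) of WT. The other 5 genes had 0 alignments with such shared letters in any library. Tuba3a was not filtered in this way, and its values rest on all of its alignments. Tuba1a, in contrast, was at 160 FPKM in WT and 278 in CAST-/129-, and Tubb5 at 292 and 350.

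Genes next to the 6 were measured in order to see whether a fall was shared by the neighbourhood. Within 100 kb of a member start 21 other genes started, of which 8 were at 1 FPKM or more in WT, and 0 of the 21 passed the 3-fold rule in any mutant. A fall could be called for 6 of the 21, those above 8 FPKM in WT, and at a share of 1.98% of such genes in CAST-/129- a count of 0 is near the background. These 6 lie beside Npl, Lrrc34 and Ppm1j. Tuba3b and Tcl1 had no neighbour above 8 FPKM and Mme had no neighbour at all, so a shared fall could not be called for them. Rhoc, whose start lies 8.0 kb from that of Ppm1j, was at 53.5 FPKM in WT and 67.6 in CAST-/129-, and Mov10, 37.5 kb away, at 42.2 and 25.3. Dhx9, 62.1 kb from Npl, was at 106 FPKM in WT and 116% of that (112 to 121) in CAST-/129-, and Mynn, 45.8 kb from Lrrc34, at 15.2 and 11.2. The 5 Tcl1b genes beside Tcl1 had at most 2 counts in any library. Ifltd1, the only neighbour of Tuba3b, starts 1.4 kb from it and was below WT in each mutant. It had 29 counts in WT, 5 in CAST+/129- (34.4% of WT, 10.4 to 89.8), 0 in CAST-/129+ (0 to 55.6%) and 0 in CAST-/129- (0 to 57.8%).

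Around Lrrc34, genes too low for the rule differed from WT in both directions. Lrriq4, another leucine-rich repeat gene, starts 3.4 kb from the start of Lrrc34 on the opposite strand and overlaps it, and counts were kept apart by strand. It had 144 counts in WT, 16 in CAST+/129-, 0 in CAST-/129+ and 0 in CAST-/129-. At the WT rate 35.1 and 33.8 counts would stand in the last 2 libraries, and the exact intervals of these levels reached from 0 to 10.6% and from 0 to 11.1% of WT. Lrrc31, 52.0 kb from Lrrc34, had 81 counts in WT, 0 in CAST+/129-, 1 in CAST-/129+ and 6 in CAST-/129-, where 40.6, 19.8 and 19.0 would stand at the WT rate. Mecom, 99.9 kb from Lrrc34, had 41 counts in WT and 41 in CAST-/129-, where 9.62 would stand at the WT rate, which is 426% of WT (270 to 674). Lrriq4 passed the 3-fold rule in CAST-/129- when 1 instead of 4 was added to each FPKM.

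**Figure D3:**
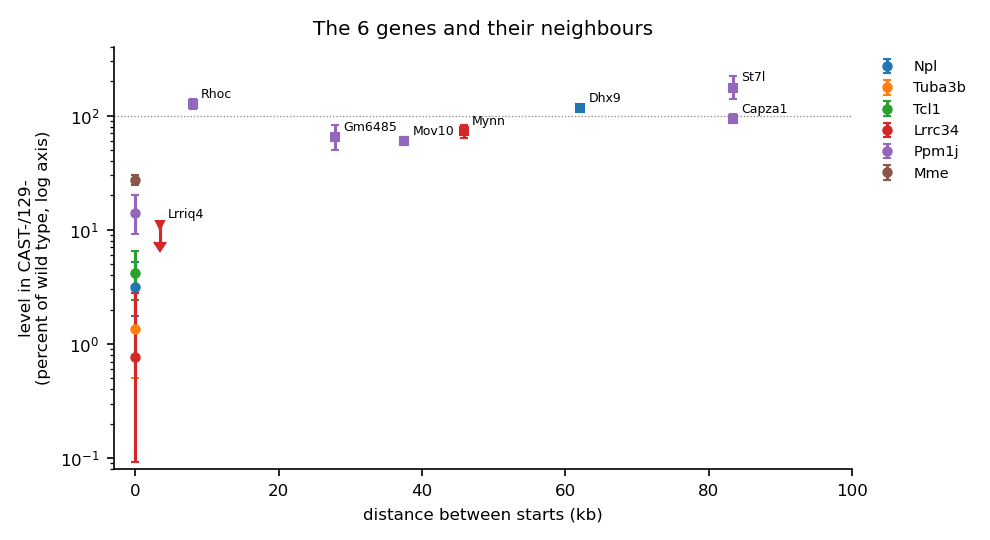
Level in CAST-/129- as a percent of WT (log axis, dotted line at 100%) for the 6 genes (circles, at 0 kb) and for neighbours at 1 FPKM or more in WT (squares), against the distance between starts in kb, with colours by member and bars for exact 95% intervals. Lrriq4, at 0 counts in CAST-/129-, is drawn at the upper end of its interval with an arrow, and the other neighbours lie between Mov10 (lowest) and St7l (176% of WT).

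The 6 genes lie on 4 chromosomes. Lrrc34 (chromosome 3, 30523189 to 30546791, minus strand), Mme (chromosome 3, 63099794 to 63186153, plus) and Ppm1j (chromosome 3, 104583974 to 104588936, plus) are on the chromosome of Sox2, with Lrrc34 nearest to it and Mme and Ppm1j at 28.6 and 70.0 Mb from its start. Npl is on chromosome 1 (155350146 to 155396844, minus), Tuba3b on chromosome 6 (145564277 to 145569999, plus) and Tcl1 on chromosome 12 (106454967 to 106460947, minus). Chromosome 3 holds 4.19% of the genes tested and 11 of the 161 that passed the 3-fold fall in CAST-/129-.

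RNA along the 6 genes was then compared between the 5′ and the 3′ part of their exonic bases, split at the midpoint. In 14 of 18 pairs of a gene and a mutant library the intervals of both parts overlapped. As background, no overlap was found for 24.6% of 6239 genes in CAST+/129-, 23.0% of 6176 in CAST-/129+ and 23.3% of 6155 in CAST-/129-. These genes had 1000 exonic bases or more, 10 to 200 FPKM in WT and at least 10 alignments in each part of both libraries. In CAST-/129- all members but Mme fell short of these 10, as did Tcl1 in CAST-/129+, and overlap is then easily met. Nothing is read from the count of the 4 pairs without overlap. The exceptions were Npl in CAST+/129-, with 50.6% of WT (44.0 to 57.9) in the 5′ part and 33.1% (27.9 to 39.1) in the 3′ part, and Mme in all 3 mutants. In CAST-/129- Mme kept 37.3% of WT (33.1 to 41.8) in its 5′ part and 17.4% (14.6 to 20.5) in its 3′ part. In CAST-/129+ these were 34.0% (30.2 to 38.3) and 24.9% (21.6 to 28.6). The 3′ part of Mme was thus lower in CAST-/129- than in CAST-/129+, with intervals apart, while the intervals of its 5′ part overlapped. The last exon of Mme, with 1999 bases, had 3268 counts in WT, 656 in CAST+/129-, 188 in CAST-/129+ and 120 in CAST-/129-, the last being 15.6% of WT. The ratio of the 5′ to the 3′ part was 1.09-fold that of WT at the median of 6155 genes in CAST-/129-, and that of Mme was above the ratio of 98.4% of them. That of Ppm1j in the same library was above 0.195% of them, with 6.59% of WT (2.40 to 14.5) in the 5′ part and 19.6% (12.3 to 29.7) in the 3′ part, from 6 and 23 alignments. With 6 alignments in a part Ppm1j would not enter this background itself. Of the sense alignments in gene bodies between 2.25% and 3.40% fell in introns in the 4 libraries, and 0 in the introns of 5 of the genes, so that unspliced RNA could not be read from these files.

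Beside Mme, RNA was found where GENCODE M1 has no gene on the same strand. RefSeq holds 3 promoter entries for Mme, of which the 1 nearest the GENCODE start was used. Where the others lie was not tested. On the strand of Mme, between 57 and 1 kb before its start (chromosome 3, 63042794 to 63098793), the WT library had 7898 alignments and the mutants CAST+/129-, CAST-/129+ and CAST-/129- had 394, 115 and 94. This is 9.95% (8.97 to 11.0), 5.97% (4.92 to 7.18) and 5.07% (4.09 to 6.21) of WT, lower in each mutant than the exons of Mme (50.2%, 29.5% and 27.4%). On the opposite strand the same region had 105, 39, 27 and 17 alignments. From 87 to 58 kb before the start the strand of Mme held 15 alignments in WT, so that little RNA was seen farther out. The 2 GENCODE exons nearest the 5′ end had 4 and 0 counts in WT, and exon 3 had 269. The marks and promoter letters of Mme were taken at the GENCODE start, and which start was in use was not tested. Past the last exon, the step from 80 to 90 kb after the start, outside the gene, held 1707 alignments in WT, 183, 57 and 54 in the mutants in the same order. The bounds of the region from 57 to 1 kb before the start were chosen after its values were seen. They leave out the last 1 kb before the start, where both monoallelic mutants were closer to WT. In alignments scaled to library size, this 1 kb was at 5.31 in WT, 4.09 in CAST+/129-, 3.30 in CAST-/129+ and 0.686 in CAST-/129-. Whether it differs from the rest beyond counting error was not tested.

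**Figure D4:**
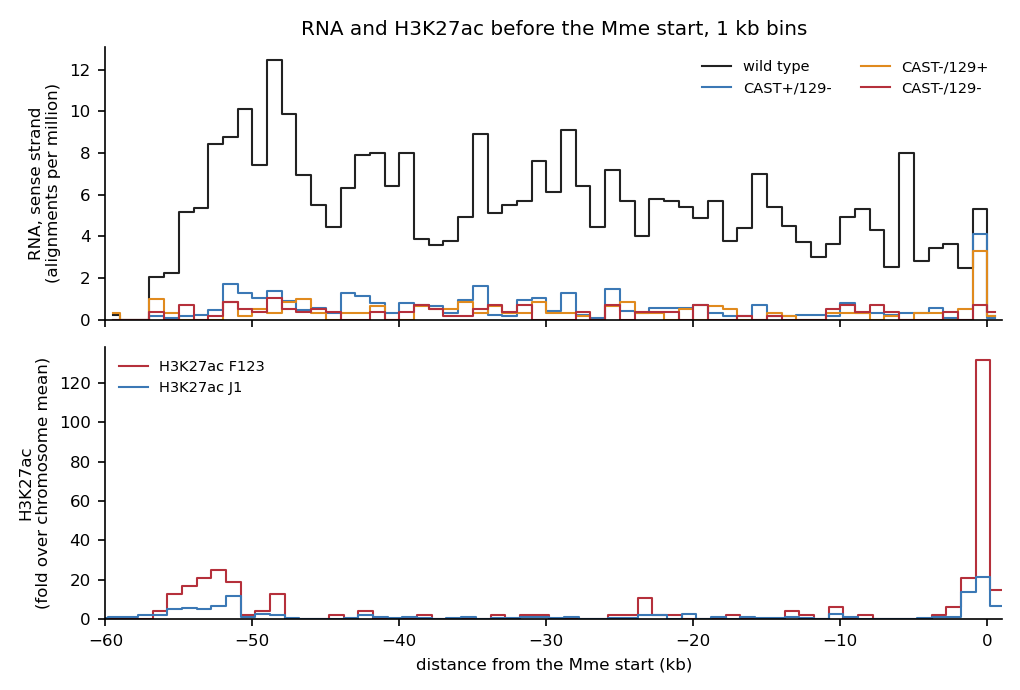
Top, sense-strand RNA alignments in 1 kb bins, scaled to library size, from 60 kb before to 1 kb after the Mme start for the 4 libraries, and bottom, H3K27ac as fold over the chromosome mean in F123 and J1. WT RNA appears at the H3K27ac block that lies 55.3 to 51.3 kb before the start and continues towards it, and the 3 mutants are lower than WT over the region as a whole.

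Of 240 steps of 10 kb within 100 kb of the 6 starts, counted on each strand outside all gene bodies of that strand, 12 held at least 300 WT alignments, and 8 of these were beside Mme on its strand. The other 4 were 90 to 100 kb after the Npl start (525 alignments in WT and 26 in CAST-/129-, 21.1% of WT, 13.7 to 31.3), 20 to 30 kb after the Lrrc34 start on the opposite strand (379 and 16, 18.0%, 10.2 to 29.6), within 10 kb after the Tuba3b start on the opposite strand (368 and 37, 42.8%, 29.7 to 60.2) and 20 to 30 kb before Ppm1j on the opposite strand (574 and 87, 64.6%, 50.9 to 81.0). The step beside Lrrc34 also holds the 3′ end of Mynn on the counted strand, whose gene body was left out. The 12 steps were kept for their high WT counts, which favours lower values in the mutants, so nothing is read from their direction.

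ChIP-seq of unedited cells showed that the 6 genes did not share a promoter state. Within 2 kb on each side of the start, H3K27ac in F123 was 42.4-fold (33.6 to 52.7) the chromosome mean at Mme, 40.3-fold (31.8 to 50.3) at Lrrc34 and 21.2-fold (15.4 to 28.5) at Tcl1. It was 3.66-fold (1.47 to 7.54) at Ppm1j, 1.59-fold (0.434 to 4.07) at Tuba3b and 1.44-fold (0.298 to 4.22) at Npl. In J1 it was 33.0-fold (29.5 to 36.9) at Lrrc34, 28.5-fold (25.4 to 32.0) at Tcl1, 12.3-fold (10.2 to 14.7) at Ppm1j and 10.8-fold (8.82 to 13.1) at Mme, and 2.93-fold (1.98 to 4.18) at Npl and 0.962-fold (0.480 to 1.72) at Tuba3b. The promoters of Npl and Tuba3b thus lacked H3K27ac above 5-fold in both lines, although these genes were at 58.1 and 42.6 FPKM in WT F123 cells.

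Above 5-fold H3K27ac were 3 of the 6 in F123, beside 20.1% of all gene starts and 56.6% of those of genes above 8 FPKM, and 4 of the 6 in J1, beside 16.1% and 44.6%. H3K4me3 in F123 was above 5-fold at Ppm1j (9.95, 8.06 to 12.2) and Mme (9.74, 7.87 to 11.9), which is 2 of 6 beside 31.0% of all starts and 79.0% of those of genes above 8 FPKM. At Tcl1 (4.67), Tuba3b (3.78), Npl (3.30) and Lrrc34 (2.90) it was below the threshold. With a window of 1 kb instead of 2 kb the count was 4 of 6, beside 35.3% of all starts. At the start of Lrrc34, H3K27ac in F123 was 40.3-fold and H3K4me3 at percentile 16.5 of expressed genes. In 1 kb bins, H3K4me3 was at 6.22-fold 0.3 kb after this start and at 12.4-fold 2.7 kb before it, outside the window. The F123 H3K27ac library holds few distinct alignments, 1576875 from 8047321 reads, and the J1 library 7743500 from 81285265, so that both hold many repeated reads. The mean was 0.478 to 0.628 distinct alignments per kb on these chromosomes in F123 against 2.38 to 2.86 in J1. Levels were not compared between the lines, and no input library was used.

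**Figure D5:**
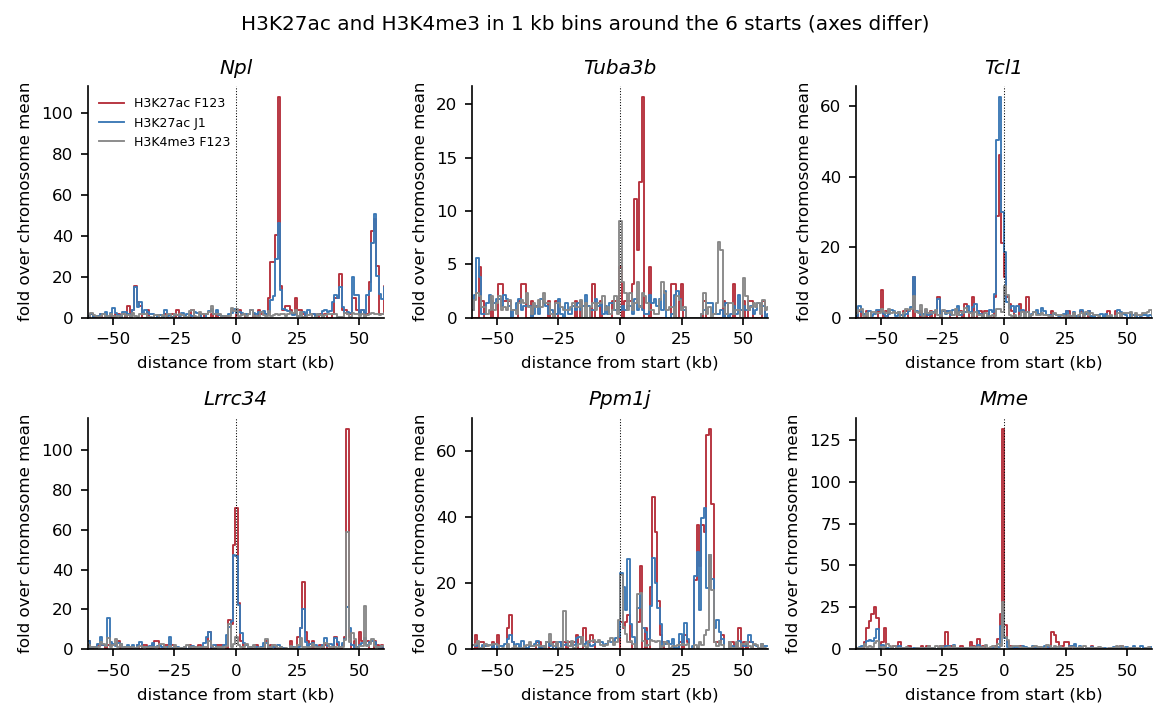
H3K27ac in F123 and J1 and H3K4me3 in F123 as fold over the chromosome mean in 1 kb bins, from 60 kb before to 60 kb after the start of each gene (dotted line at 0, direction of transcription to the right, vertical scales differ). Npl has its highest F123 bin inside the gene at 17.3 kb after the start (108-fold), and Mme at the start itself (132-fold).

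Enhancers near the 6 genes were sought as 1 kb bins above 5-fold H3K27ac within 50 kb of the start and more than 2.5 kb from every annotated start. On the chromosomes of the 6 genes this threshold is 2.39 to 3.14 alignments per bin in F123 and 11.9 to 14.3 in J1. In F123 3 or 4 alignments were thus enough. Such bins were found in F123 for 6 of the 6, beside 80.2% of 8127 genes above 8 FPKM, in J1 for 4 of the 6, beside 66.4%, and in both lines for the same 4, beside 56.2%. Npl had 18 bins in F123, 16 in J1 and 13 in both, and as many or more were found for 7.97% of the genes above 8 FPKM in F123 and 6.78% in J1. Its highest bin lay inside the gene, 17.3 kb after the start (chromosome 1, 155379001 to 155380000), with 56 F123 alignments (108-fold) and 118 in J1 (46.1-fold), while H3K4me3 was at 1.16-fold there. Npl thus had the largest number of distal bins of the 6 genes and, like Tuba3b, a start without H3K27ac above 5-fold.

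Ppm1j had 9 bins in both lines, and 10.5% of the genes above 8 FPKM had as many or more. The highest in F123 was 13.5 kb after its start (46.0-fold in F123 and 27.7-fold in J1), at the 3′ end of Rhoc, and a block from 30.5 to 34.5 kb after the start, inside Mov10, reached 37.7-fold (F123) and 42.8-fold (J1). This block ends at the 2.5 kb limit around the start of Mov10, 37.5 kb from that of Ppm1j. The bin at 36.5 kb had 66.9-fold H3K27ac and 28.6-fold H3K4me3 in F123, and whether the block is apart from that signal was not tested. The RNA of Rhoc was at 126% of WT (114 to 140) in CAST-/129- and that of Mov10 lower than WT, at 25.3 against 42.2 FPKM. Lrrc34 had 5 bins in both (21.8% of genes had as many or more), with the highest 27.3 kb after the start (33.5-fold and 20.1-fold). In the step that holds this bin, the RNA of the opposite strand was at 18.0% of WT. This step also holds the 3′ end of Mynn on that strand, and whether its RNA is apart from Mynn was not tested. The Lrrc34 bin 2.7 kb before the start had 12.4-fold H3K4me3, and whether it is apart from the signal at the start was not tested. Tcl1 had 4 bins in both (27.2%), with the highest 2.6 kb before the start (28.9-fold and 50.4-fold). This bin, whose midpoint is just past the limit of 2.5 kb, adjoins without a gap the bins at the start of Tcl1, which were at 46.2-fold and 21.2-fold in F123 at 1.6 and 0.6 kb before it, so it is not apart from the signal at the start. Tuba3b had 4 bins in F123 (48.8%), up to 20.7-fold at 9.2 kb after the start, and 0 in J1. Mme had 5 in F123 (42.0%) and 0 in J1 within 50 kb, and just beyond, from 55.3 to 51.3 kb before its start, 5 adjoining bins were above 5-fold in both lines (12.6 to 25.1-fold in F123 and 5.04 to 11.7-fold in J1). This block overlaps the far end of the RNA that lies before the Mme start and outside GENCODE M1 genes.

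The letters of the promoters were searched for the words of ESC transcription factors on both strands: the Sox core CATTGT, the octamer ATGCAAAT of Oct4, their join TTGTNATGC, the Esrrb word TCAAGGTCA, the Klf word GGGTGNGGC and the Stat word TTCCNGGAA, of which the join overlaps the end of the Sox core and the start of the octamer. RefSeq promoters of GRCm38.p6, 250 bases before to 50 after the start, were matched for all 6 genes, and their letters were found unchanged in mm9. Only the Klf word was found, in 2 of the 6 (Npl and Tcl1), beside 5.13% of 32851 promoters. The Sox core was in 0 of the 6, beside 12.6%, and the other words in 0, beside 0.423% (Esrrb) to 1.74% (octamer). Within 1 kb on each side of the start in mm9, the Sox core was in 2 of the 6 (Tcl1 and Lrrc34), beside 61.1% of 37273 starts, the Klf word in 2 (Npl and Tcl1), beside 15.2%, and the Stat word in 1 (Lrrc34), beside 5.87%. The promoters of Npl and Tcl1 are shown for the Klf word, which stands in capitals, and that of Tuba3b as the start with less than 2-fold H3K27ac within 2 kb in both lines and without any word. The RefSeq start lies 206 bases after the GENCODE start, where the marks were measured, for Tuba3b and 51 bases after it for Lrrc34. The 1 kb bin at the GENCODE start of Tuba3b was at 4.77-fold H3K27ac in F123.
Npl promoter, chr1:153549665-153549964 of GRCm38.p6, minus strand: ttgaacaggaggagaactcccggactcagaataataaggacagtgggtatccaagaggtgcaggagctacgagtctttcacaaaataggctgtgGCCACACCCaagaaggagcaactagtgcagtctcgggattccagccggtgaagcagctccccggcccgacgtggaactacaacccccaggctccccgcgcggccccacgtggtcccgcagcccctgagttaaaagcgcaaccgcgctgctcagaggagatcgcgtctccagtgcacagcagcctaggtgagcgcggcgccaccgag
Tcl1 promoter, chr12:105222688-105222987 of GRCm38.p6, minus strand: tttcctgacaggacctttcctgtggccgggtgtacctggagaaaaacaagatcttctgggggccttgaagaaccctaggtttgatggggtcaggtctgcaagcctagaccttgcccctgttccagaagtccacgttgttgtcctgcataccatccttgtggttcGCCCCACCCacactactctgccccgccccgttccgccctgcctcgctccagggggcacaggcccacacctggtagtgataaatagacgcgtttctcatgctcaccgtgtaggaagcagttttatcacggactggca
Tuba3b promoter, chr6:145615713-145616012 of GRCm38.p6, plus strand: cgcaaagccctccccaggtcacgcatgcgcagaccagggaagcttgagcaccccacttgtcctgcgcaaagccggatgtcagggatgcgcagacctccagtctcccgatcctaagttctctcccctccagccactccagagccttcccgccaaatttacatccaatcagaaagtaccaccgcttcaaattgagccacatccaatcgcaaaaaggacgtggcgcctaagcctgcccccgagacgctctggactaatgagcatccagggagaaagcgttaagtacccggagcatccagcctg

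In both promoters the capitals show the Klf word as read on the opposite strand, at position -156 from the start in Npl and -86 in Tcl1. All 6 promoters were richer in G and C than the median promoter (52.7%), from 56.3% in Lrrc34 to 73.0% in Mme, and they held between 11 and 32 CG pairs beside a median of 7.

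Of the distal bins above 5-fold in both lines, the highest in F123 was searched in the same way for Npl, Tcl1, Lrrc34 and Ppm1j, and for Mme the highest F123 bin of the block before its start. Of these 5 bins, 1 held the Sox core (Lrrc34), beside 40.7% of 24764 distal bins above 5-fold in both lines, and 1 the Klf word (Ppm1j), beside 12.0%. The other 4 words were in 0 of the 5, beside 3.25% (Sox-Oct join) to 6.17% (octamer). The part of the Npl bin with the most F123 alignments is shown because this bin is the strongest distal H3K27ac bin of the 6 genes in F123. It lies in an intron, between exons 4 and 5, and the capitals mark a repeated run of letters.
Npl, inside the gene, chr1:155379515-155379814 of mm9, minus strand: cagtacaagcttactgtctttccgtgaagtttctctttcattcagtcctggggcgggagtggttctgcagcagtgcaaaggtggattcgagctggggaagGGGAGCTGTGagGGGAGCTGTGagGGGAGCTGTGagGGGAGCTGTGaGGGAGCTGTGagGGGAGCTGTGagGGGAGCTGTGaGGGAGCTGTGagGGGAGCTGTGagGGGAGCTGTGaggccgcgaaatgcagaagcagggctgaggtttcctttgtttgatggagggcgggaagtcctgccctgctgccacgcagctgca

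In the Npl stretch the capitals mark 10 copies of a run of 10 letters within 300 bases. It held 27 of the 56 F123 alignments of its 1 kb bin and 44 of the 118 in J1, and how reads were placed in this repeat was not tested. The remaining alignments of the bin lay outside the stretch, and the next bin, 16.3 kb after the start, reached 40.4-fold (F123) and 28.5-fold (J1).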

How the data were processed

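The 7 libraries were deposited by the authors as aligned reads on mm9, made with Novoalign for RNA and Bowtie for ChIP per the labels, with no versions given in the sources used here. In each deposited file, a line is a distinct alignment with the number of reads behind it, and the unit used here is counts of distinct alignments, with all reads counted as an alternative. RNA was stranded, and alignments were assigned by their midpoint to the exonic bases that a gene of GENCODE M1 has to itself on its strand, for 31498 genes with at least 200 such bases. FPKM was computed from these counts, and genes were called at 3-fold after 4 was added to each FPKM. ChIP counts are 5′ ends divided by the mean of the chromosome. With 1 library per condition no test was made, and exact Poisson and binomial 95% intervals cover counting error only, with each alignment taken as independent. Reads carry no molecular identifiers, and alignments of a read pair were not joined. Bins on chromosome 18 were left out of the shares of letters. The 6 genes and all gene lists were chosen with earlier results of these data known. Named genes are the 6, list members past 3-fold in CAST-/129- or at 1 FPKM or more in WT, neighbours within 100 kb, and the 2 genes nearest in pattern to each. Neighbours below 1 FPKM, markers and genes at the threshold were named after their values were seen where they were too low for this rule. Listed genes that met this rule were counted and only some were named, and 1 is not reported here. Python 3.11.15 with numpy 2.4.6, pandas 2.3.3, scipy 1.17.1 and matplotlib 3.10.9 was used.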

Additional observations from a re-analysis of the deposited data

How the results depend on the processing

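The 227 values recomputed under another setting were labelled only as same or moved, so that a reversal could not be recorded. The choice of the 6 genes for a fall also fixes the direction of their percents of WT. Outside the 227 values, 3 places against Sox2 turned with all reads counted, and Npm1 and Ncl changed from above to below WT. Counts of genes past the fold rule moved. In CAST+/129- they were 1 of 6 with 10 added to each FPKM, 1 at 5-fold and 4 at 2-fold, against 2, beside 0.0762%, 0.0444%, 1.27% and 0.305% of all genes. In CAST-/129+ they were 1 with 10 added, 1 at 5-fold, 5 with 1 added and 6 at 2-fold, against 4, beside 0.102%, 0.0508%, 1.29%, 1.53% and 0.330%. In CAST-/129- they were 4 with 10 added or at 5-fold, and 5 with all reads counted or with library sizes from all distinct alignments, against 6. The number of all genes called there was 161, but 565 with 1 added, 50 with 10 added, 605 at 2-fold and 29 at 5-fold. It was 125 with all reads counted and 106 with library sizes from all distinct alignments. With 1 added, 1 neighbour (Lrriq4) passed, against 0. With all reads counted, Npl was at 30.6% of WT in CAST+/129- and 18.8% in CAST-/129+, Mme at 36.3%, 20.9% and 20.7% in the 3 mutants, and Ppm1j at 20.4% in CAST-/129-; the cause was not tested. Starts above the H3K4me3 threshold were 4 within 1 kb, 5 at 3-fold and 0 at 10-fold, against 2, beside 35.3%, 37.9%, 17.3% and 31.0% of all starts. Distal bins in both lines were 49 within 100 kb and 20 at 10-fold, against 31. Alternatives that used unique letters, or the 5′ or 3′ part of the exons, were chosen after seeing the data. No paired analysis was possible because each group has 1 library.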
